A study of Mus musculus with 4 samples.

Results

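The enzymes described here make serine from glucose carbon and pass its one-carbon unit to folate. The group holds 9 genes: Phgdh, Psat1 and Psph of serine synthesis, Shmt2, Mthfd2, Mthfd1l and Aldh1l2 of the mitochondrial folate pathway, and Shmt1 and Mthfd1 of the cytosolic one. A probe was taken as a member when the array names it by a RefSeq transcript of one of these genes, which gave 15 of 41174 probes. All 15 probes were well above background on all 4 arrays, so each of the 9 genes entered the comparison, 9 of 15537 genes tested. Of these 15537, 10953 had a gene symbol, and 4584 had only the array's name for the probed sequence. Both kinds are counted as genes in every share given below. Levels were read from 4 Agilent arrays of Hepa1c1c7, an established mouse hepatoma cell line grown in serum-containing medium. In the DEM group, 2 RNA samples were from cells treated with diethyl maleate (DEM) at 100 µM, a thiol-reactive electrophile described in the series title as an NRF2 activator, for 6 hours. In the control group, 2 RNA samples came from cells of the same line given the solvent dimethyl sulfoxide (DMSO) for 6 hours. No label says that the samples of a group came from separate cultures. A p-value here sets the difference only against how far these samples of a group lay apart, a spread that limma partly shares across genes. That spread may be technical.

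Serine is built from the glycolytic intermediate 3-phosphoglycerate by PHGDH, PSAT1 and PSPH in turn. SHMT2 in mitochondria and SHMT1 in the cytosol split serine into glycine and a one-carbon unit carried on folate. In mitochondria MTHFD2 and MTHFD1L oxidise that unit and release it as formate, and in the cytosol MTHFD1 puts formate back on folate for purine and thymidylate synthesis. Glycine and, through transsulfuration, serine also feed glutathione, the thiol that DEM consumes, and the transcription factor ATF4 is known to drive many of these genes.

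Exposure was visible in known NRF2 targets on both DEM arrays. The quinone reductase gene Nqo1 lay 2.38 and 2.32 above the DMSO mean on the log2 scale, and the cystine importer gene Slc7a11 lay 5.03 and 5.27 above it (limma adjusted p = 0.0125 and 0.00442). Hmox1, which breaks down haem, and Gclm, of glutathione synthesis, had log2 changes of 4.55 and 2.01. Across all genes limma called 190, or 1.22% (0.714% higher and 0.508% lower in DEM, Benjamini-Hochberg adjusted p under 0.05). Of the called genes 58.4% were higher in DEM. That share was 71.3% with median scaling of the arrays and 35.0% with scaling on spike-in probes. Without DMSO replicate 1, as without DMSO replicate 2, limma called 0 genes, and 2113 and 2015 genes then had an unadjusted p under 0.05. Leaving out DEM replicate 1 gave 121 calls, and leaving out DEM replicate 2 gave 102. Between 50.4% and 52.6% of probes were well above background on each array, and 0 spots were saturated. Of 9 hepatocyte and hepatoma markers, 6 were tested and 0 called by limma (2 had an unadjusted p under 0.05), while Ttr, Apoa1 and Hnf4a were too dim to enter the test, which asks for 2 arrays well above background. Log2 changes were −0.18 to 0.29 for Alb, Afp, Trf, Krt8 and Krt18. Apob, well above background on 3 of 4 arrays, had signals of 0.0271 and 0.00674 in DMSO and 0.0963 and 0.225 in DEM, a log2 change of 3.45 (limma adjusted p = 0.138). Of 4 leukocyte and 3 endothelial markers 0 were tested, and of 4 fibroblast and stellate markers 4 were tested, with log2 changes from −0.25 to 0.27 and 0 called. The 2 DMSO samples lay at positions 1 and 2 of the slide and the DEM samples at positions 3 and 4, so position and group cannot be told apart.

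None of the 9 enzymes was called. The count of calls by limma was 0 of 9 at the adjusted threshold, where 1.22% of all genes tested were called. So low a share leaves 0 of 9 near the background. At an unadjusted p under 0.05 the count was 0 of 9, where 19.2% of all genes tested had such a p. The adjusted p of the members ran from 0.420 to 0.967. The 95% interval of the change lay inside 2-fold in either direction for 8 of the 9, as it did for 88.9% of all genes tested, and Aldh1l2 was the exception. The members' median log2 change was 0.01, beside −0.01 for all genes tested. In 16 other ways of processing the arrays the count of called members was also 0, with 0.117 as the lowest adjusted p. Across these ways limma called from 0 to 882 of all genes tested. Without the filter on dim probes it called 0 of all genes, so a count of 0 members was fixed there. The same holds for the fits without either DMSO replicate. The deposited value table holds the same intensities, so its result was fixed as well.

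Below, a signal is given for the brightest probe of the gene as a multiple of the 75th percentile of the same array, so that 1 means a signal at that percentile. Signals of different genes come from different probes and are not set against each other.

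The first 2 steps of serine synthesis did not differ beyond the spread of the DEM arrays. Phgdh, the dehydrogenase that commits 3-phosphoglycerate to serine, had signals of 159 and 160 in DMSO and 153 and 169 in DEM. The DMSO arrays lay between the DEM arrays, and the difference was 1.01-fold (95% interval 0.847 to 1.21, log2 change 0.01 ± 0.09, SE, n = 2 arrays per group, limma adjusted p = 0.956). Its other 2 probes gave log2 changes of −0.05 and 0.01. Psat1, the aminotransferase of the second step, had signals of 50.6 and 50.5 in DMSO and 48.2 and 53.8 in DEM. Again the DMSO arrays lay between the DEM arrays, and the difference was 1.01-fold (95% interval 0.840 to 1.21, limma adjusted p = 0.967). The sign of so small a difference depended on the scaling: with spike-in scaling the log2 change was −0.06 for both genes.

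Psph, the phosphatase that releases serine, had signals of 10.1 and 11.2 in DMSO and 11.2 and 14.3 in DEM. The high array was DEM replicate 2, and DEM replicate 1 lay at the level of DMSO replicate 2. The difference was 1.19-fold (95% interval 0.890 to 1.58, log2 change 0.25 ± 0.15, SE, n = 2 arrays per group, limma adjusted p = 0.469). The second Psph probe had signals of 8.03 and 9.12 in DMSO and 9.21 and 11.9 in DEM, a log2 change of 0.29. Those 4 values did not overlap between groups by a narrow margin, and the same array was the high one. Both DEM arrays were above both DMSO arrays in 24.9% of the genes tested. Without DEM replicate 2 the log2 change of Psph was 0.07, and without DEM replicate 1 it was 0.42. After normexp background correction it was 0.37, with an unadjusted p of 0.0272 and an adjusted p of 0.163 by limma. In that fit 3574 of the 15537 genes tested had an unadjusted p under 0.05 by limma, and 1 of the 9 members.

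The promoters of Phgdh and Psph are shown because they alone, of the 9 windows held for 8 members, contain the core of the antioxidant response element to which NRF2 binds, while neither gene was called. The sequences are from RefSeq, build GRCm38.p6, and run 5′ to 3′ on the strand of the gene from 250 bases before the start to 50 after it. Capitals mark the match to TGACNNNGC, which in both lies on the opposite strand, first base at −53 for Phgdh and at 5 for Psph counted from the start.
Phgdh, chr3:98339920-98340219, minus strand: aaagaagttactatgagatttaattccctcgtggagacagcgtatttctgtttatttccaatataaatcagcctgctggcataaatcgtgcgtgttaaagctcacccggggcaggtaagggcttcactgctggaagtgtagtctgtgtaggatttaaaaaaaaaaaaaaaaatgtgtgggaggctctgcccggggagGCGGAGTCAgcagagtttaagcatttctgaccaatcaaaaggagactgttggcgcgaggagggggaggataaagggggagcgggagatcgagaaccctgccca
Psph, chr5:129787204-129787503, minus strand: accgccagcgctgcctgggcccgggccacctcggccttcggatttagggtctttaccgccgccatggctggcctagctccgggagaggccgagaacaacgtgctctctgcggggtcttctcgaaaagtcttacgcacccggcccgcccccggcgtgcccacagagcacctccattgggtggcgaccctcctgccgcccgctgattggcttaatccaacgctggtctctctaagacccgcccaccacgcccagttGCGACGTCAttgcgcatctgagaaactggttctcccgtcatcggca
Searched on both strands, TGACNNNGC occurs in 12.4% of all 32851 promoter windows of this length. The C/EBP-ATF element core TGATGNAA occurs in 3.97% of them and in 0 of the 9 windows of members. Of the other genes named in the text, matches were listed only for Nqo1, Gclm, Slc7a11, Srr, Trib3, Chac1, Sesn2 and Atf4. No window was held for Hmox1. TGACNNNGC matched in Gclm and Sesn2, and not in Nqo1, Slc7a11, Srr, Trib3, Chac1 or Atf4. TGATGNAA matched in Slc7a11, Trib3 and Chac1, and not in Nqo1, Gclm, Srr, Sesn2 or Atf4. A match describes letters in this window and is not evidence of a bound site.

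**Figure D1:**
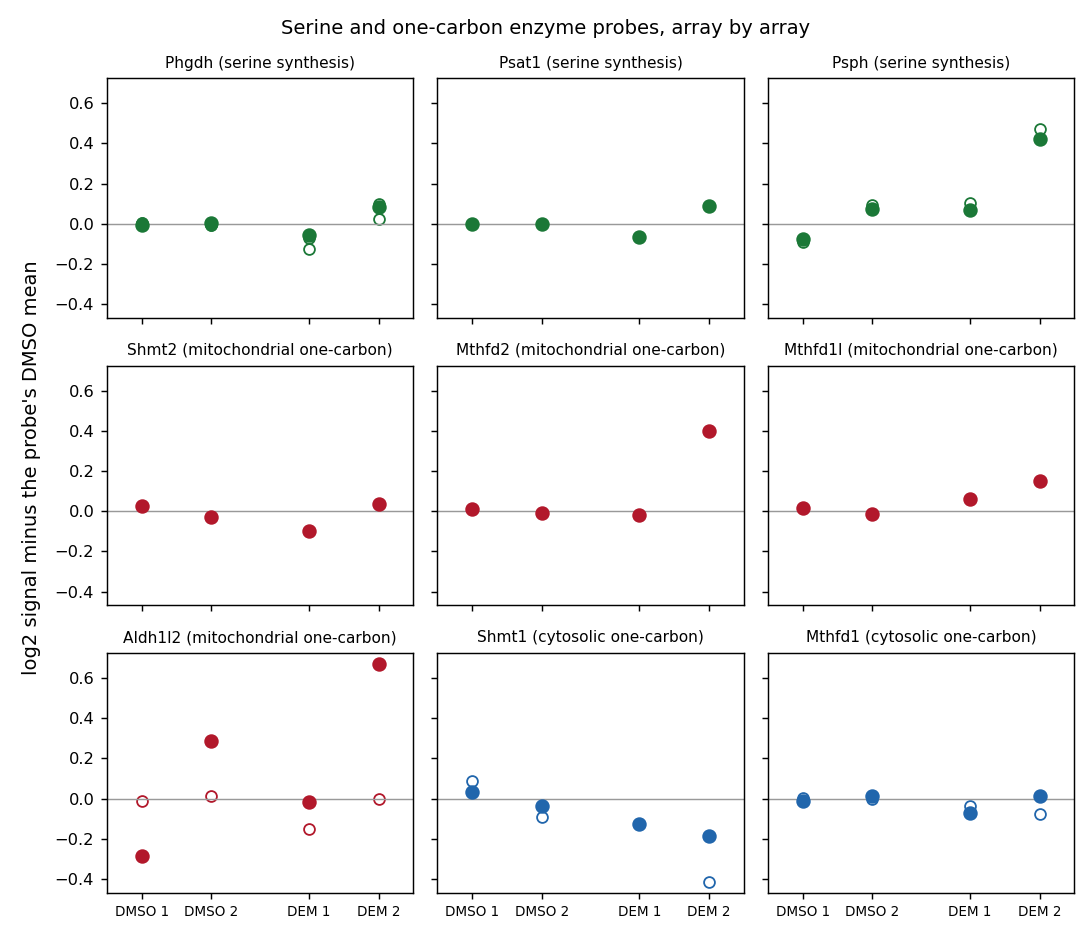
Log2 signal of each probe minus that probe's mean in the 2 DMSO arrays, with 1 panel per gene and 1 column of points per array. Filled circles are the brightest probe of the gene and open circles its other probes. The high points of Psph, Mthfd2 and the brightest Aldh1l2 probe all belong to DEM replicate 2. The dimmer Aldh1l2 probe was highest on DMSO replicate 2. Both Shmt1 probes lie below their DMSO values on both DEM arrays.

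In the mitochondrial arm the entry enzyme did not differ beyond its spread. Shmt2, which takes the one-carbon unit from serine, had signals of 11.0 and 10.6 in DMSO and 10.1 and 11.1 in DEM. The DMSO values lay within the DEM range, with a difference of 0.979-fold (95% interval 0.818 to 1.17, limma adjusted p = 0.903). Its log2 change of −0.03 became 0.08 after normexp background correction and 0.11 with median scaling.

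Mthfd2, the mitochondrial dehydrogenase and cyclohydrolase, had signals of 1.16 and 1.14 in DMSO and 1.13 and 1.51 in DEM. Of the 4 arrays, 3 agreed closely and DEM replicate 2 stood above them. The difference was 1.14-fold (95% interval 0.843 to 1.55, log2 change 0.19 ± 0.16, SE, n = 2 arrays per group, limma adjusted p = 0.595). Without DEM replicate 2 the log2 change was −0.02, and without DEM replicate 1 it was 0.40, still not called (limma adjusted p = 0.276).

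Mthfd1l, which releases formate, was the member of this arm whose groups did not overlap, which was also the case for 50.6% of the genes tested. Its signals were 15.0 and 14.7 in DMSO and 15.5 and 16.5 in DEM. The difference was 1.08-fold (95% interval 0.914 to 1.27, limma adjusted p = 0.585).

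Aldh1l2, which oxidises the folate-bound unit to carbon dioxide while making NADPH, had the widest spread of the 9. The brighter probe gave 0.344 and 0.511 in DMSO and 0.415 and 0.667 in DEM. In each group replicate 2 was the higher array, and the groups overlapped. The difference was 1.25-fold, with a 95% interval from 0.701 to 2.24 (limma adjusted p = 0.640). The dimmer probe gave 0.0805 and 0.0819 in DMSO and 0.0731 and 0.0811 in DEM, a log2 change of −0.08, so the 2 probes of this gene differed in sign. With the replicate number as a block the spread shrank and the unadjusted p of Aldh1l2 was 0.0178, with a limma adjusted p of 0.117. In that fit 4301 of the 15537 genes tested had an unadjusted p under 0.05 by limma, and 1 of the 9 members.

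In the cytosolic arm Shmt1, which interconverts serine and glycine, had signals of 2.56 and 2.44 in DMSO and 2.28 and 2.20 in DEM. Both DEM arrays were below both DMSO arrays, a pattern found in 25.6% of the genes tested. The difference was 0.897-fold (95% interval 0.763 to 1.06, log2 change −0.16 ± 0.09, SE, n = 2 arrays per group, limma adjusted p = 0.420). The second probe had signals of 1.50 and 1.32 in DMSO and 1.29 and 1.05 in DEM, a log2 change of −0.27, and its groups also did not overlap. The log2 change of Shmt1 stayed below 0 in all 16 alternatives and shrank to −0.01 with median scaling, which by itself moved the median of all genes from −0.01 to 0.14.

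Mthfd1, the trifunctional cytosolic enzyme, had signals of 13.1 and 13.3 in DMSO and 12.6 and 13.3 in DEM. The difference was 0.979-fold (95% interval 0.832 to 1.15, limma adjusted p = 0.890), and it turned to a log2 change of 0.11 with median scaling. The dimmer probe had 2.71 and 2.69 in DMSO and 2.63 and 2.56 in DEM, a log2 change of −0.06. On that probe both DEM arrays were below both DMSO arrays, as in 25.6% of the genes tested.

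The 3 arms are set side by side by the median log2 change of their genes. It was 0.01 over the 3 genes of serine synthesis, 0.15 over the 4 mitochondrial genes and −0.09 over the 2 cytosolic genes. The mean of the mitochondrial genes, each centred on its own mean over the 4 arrays, was −0.13 and −0.02 in DMSO and −0.09 and 0.24 in DEM on the log2 scale. The same mean for serine synthesis was −0.07 and −0.02 in DMSO and −0.06 and 0.15 in DEM. In both arms 3 arrays lay below 0 and DEM replicate 2 above it. The cytosolic mean was 0.06 and 0.03 in DMSO and −0.05 and −0.04 in DEM, the one arm whose groups did not overlap, while single genes did so in 50.6% of the genes tested. The cytosolic median turned to 0.05 with median scaling, and the serine synthesis median to −0.06 with spike-in scaling. The mitochondrial median was 0.29 with median scaling and 0.08 with spike-in scaling. Without DEM replicate 2 the mitochondrial median was −0.02 and the serine synthesis median −0.06, while the cytosolic median was −0.10. No test was made of these medians.

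The mitochondrial and cytosolic isozymes can be compared within an array. The log2 ratio of Shmt2 to Shmt1, centred over the arrays, was −0.07 and −0.06 in DMSO and −0.03 and 0.16 in DEM, a difference of 0.13. That of Mthfd1l to Mthfd1 was −0.04 and −0.09 in DMSO and 0.07 and 0.07 in DEM, a difference of 0.14. Both ratios were higher on both DEM arrays than on both DMSO arrays. Single genes showed that order in 24.9% of the genes tested, and no such share was computed for ratios. An exact two-sided permutation test gave p = 0.333 for each (0.667 adjusted over both). The value 0.333 is the smallest p that 2 against 2 arrays allow. Any groups that do not overlap give it, so the test only restates that order and cannot decide whether the ratios differ.

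**Figure D2:**
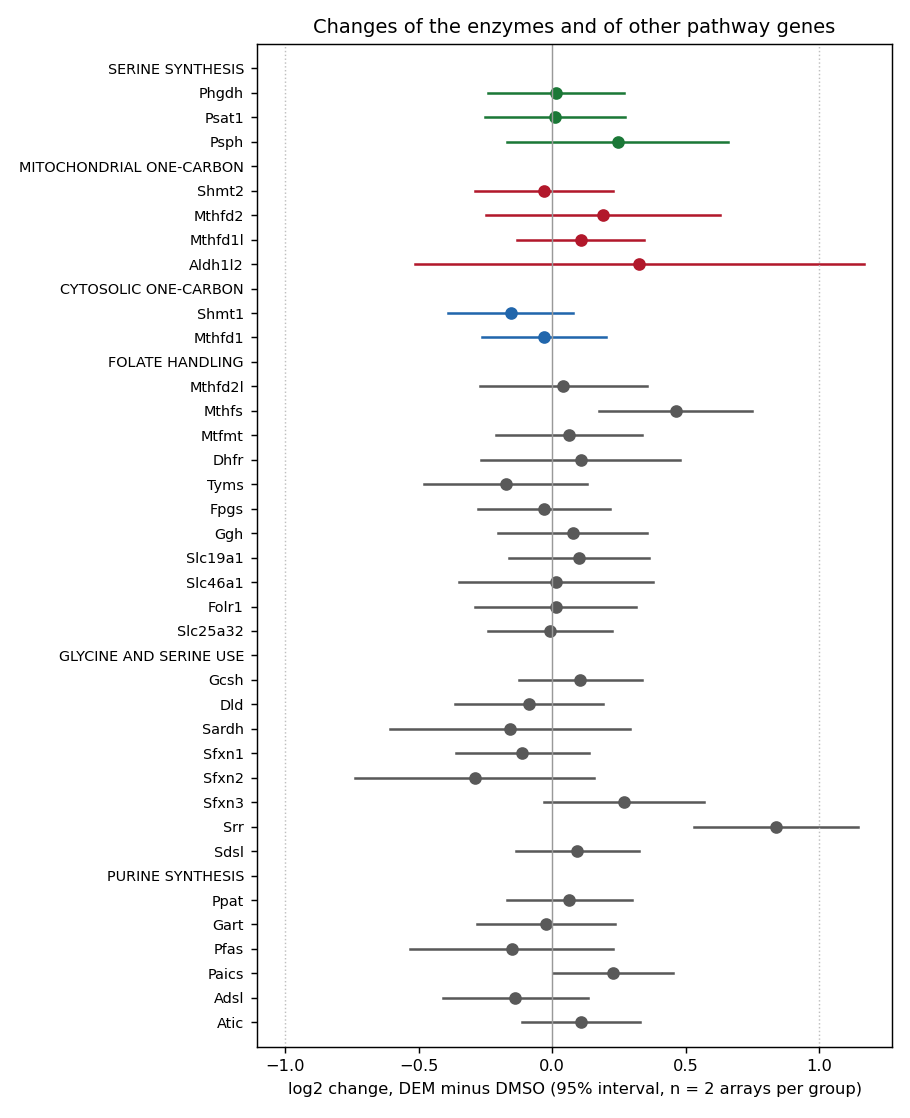
Log2 change of each gene, DEM minus DMSO, with its 95% interval from the limma fit (n = 2 arrays per group), for the 9 enzymes in colour and for 25 other genes of the pathway in grey. Dotted lines mark 2-fold. The intervals of all 9 enzymes cross 0, none of the genes drawn was called, and Srr lies farthest from 0.

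DEM replicate 2 lay above DEM replicate 1 for 8 of the 9 enzymes, Shmt1 being the exception, and for 51.7% of all genes tested. The median gap between the DEM arrays was 0.14 on the log2 scale over the 9 enzymes, beside 0.01 over all genes. For Aldh1l2 the gap was 0.69, and 3.42% of all genes had a larger one in either direction. For Mthfd2 it was 0.42 and for Psph 0.35. With spike-in scaling the median gap of all genes moved to −0.20 and 17.8% of all genes were above, and the count was 3 of 9. With median scaling, under which 76.7% of all genes were above, it was 9 of 9.

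ATF4 and its known targets showed the same order of the DEM arrays. Of 14 listed genes 13 were tested, and DEM replicate 2 was above DEM replicate 1 for 13 of 13, with a median gap of 0.36. The count was 10 of 13 with spike-in scaling, beside 17.8% of all genes. It was 12 of 13 with quantile normalization, beside 51.3% of all genes. This list had a median log2 change of 0.51, beside −0.01 for all genes. Leaving out DEM replicate 2 lowered the median to 0.28, and leaving out DEM replicate 1 raised it to 0.62. At an unadjusted p under 0.05 by limma, 6 of 13 were higher in DEM, beside 9.02% of all genes tested. At the adjusted threshold 1 of 13 was called higher, beside 1.22% of all genes called in either direction, and 0 were called lower. The called gene was Sesn2, a stress-induced sestrin, which rose 1.74-fold. It lay 0.79 and 0.82 above the DMSO mean on the log2 scale (limma adjusted p = 0.0456). Its call was lost without any one array (limma adjusted p = 0.241 without DMSO replicate 1, 0.255 without DMSO replicate 2, 0.0983 without DEM replicate 1 and 0.123 without DEM replicate 2). It also did not pass with the replicate number as a block (0.0539), with quantile normalization (0.0545), with spike-in scaling (0.155) or without the filter on dim probes (0.215). The 3 largest changes that were not called were in Trib3, a pseudokinase that restrains ATF4 (1.06), Atf3, a stress-induced transcription factor (1.00), and Chac1, which degrades glutathione (0.81). Atf3 lay 0.28 and 1.72 above the DMSO mean on the 2 DEM arrays. Atf4 itself, named after its value was seen, lay 0.17 and 0.40 above it (limma adjusted p = 0.281). Of this list 10 of 13 genes were higher on both DEM arrays than on both DMSO arrays, beside 24.9% of the genes tested and 1 of the 9 enzymes. Whether the order of the DEM arrays in this list has a part in the values of Psph, Mthfd2 and Aldh1l2 was not tested.

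**Figure D3:**
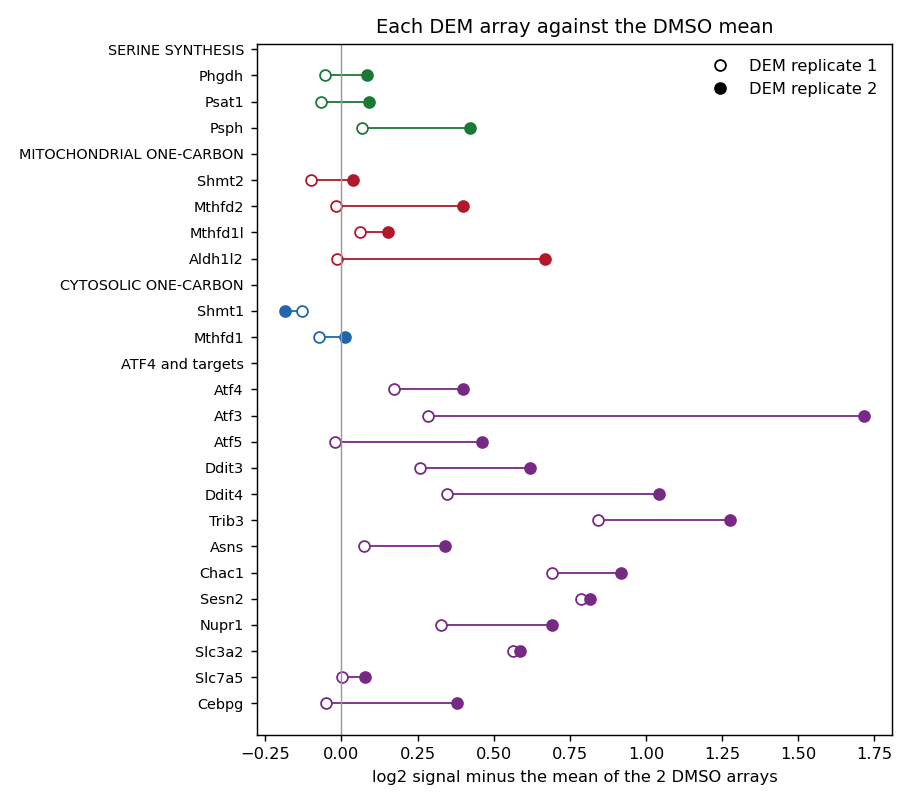
Log2 signal of each DEM array minus the mean of the 2 DMSO arrays, for the 9 enzymes and for 13 tested genes of ATF4 and its targets. Open circles are DEM replicate 1 and filled circles DEM replicate 2. The filled circle lies to the right for every gene drawn but Shmt1, and the enzymes' open circles lie between −0.13 and 0.07.

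Among other genes that handle folate, glycine and serine or build purines, 25 of the 31 listed genes reported here were tested, 5 were too dim, and 1, Amt, had no named probe. By limma 0 of the 25 were called, beside 1.22% of all genes tested. At an unadjusted p under 0.05 there were 3, Srr, Mthfs and Paics, each higher in DEM. Among all genes tested 19.2% had such a p in either direction and 9.02% had one with a higher level in DEM, so 3 of 25 is near the background. The median log2 change was 0.04.

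Among these genes Srr, the racemase that turns L-serine into D-serine, had the largest difference. Its brightest probe had signals of 0.391 and 0.337 in DMSO and 0.672 and 0.627 in DEM, or 0.84 ± 0.11 on the log2 scale (limma adjusted p = 0.0628). The other 2 probes gave 0.86 and 1.53, the last well above background on 2 of 4 arrays. Srr passed the threshold under 5 of the 16 alternatives, with an adjusted p from 0.00891 to 0.262. Mthfs, which returns 5-formyl folate to the active pool, differed by 0.46 on the log2 scale (limma adjusted p = 0.135), and Sfxn2, a mitochondrial carrier of the sideroflexin family, −0.29 (0.431). By function, the median log2 change was 0.04 over 11 tested genes of folate handling, 0.00 over 8 of glycine and serine use and 0.02 over 6 of purine synthesis.

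Genes whose 4 values, centred on their mean, lay nearest to the mean profile of an arm were found by Euclidean distance on the log2 scale over the 4 arrays. For serine synthesis they were Ctnnal1, Parg and Ahnak, at distances of 0.012, 0.023 and 0.026. For the mitochondrial arm they were Ercc6, Tsix and Spag9, at 0.017, 0.035 and 0.036. For the cytosolic arm they were Rpl15, Zc3h18 and Cluh, at 0.0097, 0.013 and 0.014. None of these 9 genes was called by limma (adjusted p from 0.591 to 0.770), and over 4 arrays the likeness is a description.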

How the data were processed

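RNA from 4 samples (2 DEM, 2 DMSO, grouped by their titles) was measured on Agilent arrays in 1 colour. An input of 500 ng RNA was amplified with a linear kit before Cy3 labelling, per the labels' protocols. The extract protocol speaks of liver tissue, whereas every other label names the cell line. Per the file headers, the intensity used is the processed signal of Feature Extraction 10.7.3.1 (protocol GE1_107_Sep09, annotation on mm9), on a linear scale after background subtraction, and the arrays shared 1 slide and 1 scan time. The authors' deposited value table holds the same intensity for all 45018 spots of each array, so its scale is linear and uncentred; its column medians were 13.8 to 16.2.

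Log2 of the processed signal minus the array's 75th percentile over non-control spots was used. Spots with an outlier flag were dropped, which left out 22 probes, and spots of a probe were averaged. Probes well above background on at least 2 arrays were tested. RefSeq transcripts (assembly GRCm38.p6, for names and promoter windows) gave 26690 of 41174 probes 1 symbol. For a probe without a symbol, the array's own name for the sequence stood as the gene. The brightest probe stood for a gene. DEM was compared with DMSO with lmFit and eBayes of limma 3.58.1 (R 4.3.3), with p-values adjusted by Benjamini-Hochberg over 15537 genes and a threshold of 0.05. The code was run on data simulated from the fitted model itself. Such data meet the model's assumptions, so that run cannot show whether these arrays do. Intervals are at 95%. The replicate numbers are not said to pair samples, and no block was used. With 2 arrays per group, the number of arrays limits the precision.

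All members are named, with Nqo1, Hmox1, Gclm and Slc7a11, the called genes and up to 3 largest uncalled changes of the pathway and ATF4 lists, and the 3 nearest profiles per arm. 1 gene of the pathway list is not reported here and is left out of that list's counts. Members and lists were chosen with earlier results of these data known. Normexp used the median spot signal, since the files hold no mean signal. Other alternatives covered the normalization, the filter, the choice of probe, the variance model, the block and leaving out each array.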

Additional observations from a re-analysis of the deposited data

How the results depend on the processing

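The count of called members was 0 under all 16 alternatives. The count over all genes, 190, was 800 after normexp, 93 with quantile normalization, 567 with median scaling, 565 with spike-in scaling, 0 without the filter on dim probes (3165 at an unadjusted p under 0.05 by limma), 426 with the filter on all 4 arrays, 726 with an intensity trend and 882 with a robust one, and 0 to 121 without 1 array. The count of other pathway genes reported here, 0, was 1 after normexp, with median scaling, with the filter on all 4 arrays or with a trend, and 2 with the robust trend. The count of ATF4 and its targets, 1, was 5 after normexp, 4 with median scaling or either trend, 3 with the filter on all 4 arrays, 2 with spike-in scaling, 0 with quantile normalization, no filter or the replicate block, and 0 to 2 without 1 array; Sesn2 was not among those called with spike-in scaling or without 1 array. The replicate block, under which 143 genes were called, changed no call of a member. Deviations of same-numbered arrays correlated at 0.14 across genes, and no label pairs them. The cytosolic median, −0.09, was −0.12 after normexp, −0.12 with quantile normalization, 0.051 with median scaling, −0.17 with spike-in scaling and −0.13 with the mean of probes. The serine synthesis median, 0.01, was 0.12 after normexp, 0.16 with median scaling and −0.058 with spike-in scaling, and −0.055 to 0.090 without 1 array. The mitochondrial median, 0.15, was 0.29 with median scaling and 0.076 with spike-in scaling, and −0.016 to 0.28 without 1 array. Signs of log2 changes turned for Phgdh with spike-in scaling (−0.058) and the mean of probes (−0.0074), for Psat1 with quantile normalization (−0.031) and spike-in scaling (−0.062), for Shmt2 after normexp (0.079) and with median scaling (0.11), and for Mthfd1 with median scaling (0.11). Without DEM replicate 2 and without DEM replicate 1, the lowest and highest of the fits that left out 1 array, the values were −0.055 and 0.085 for Phgdh, −0.067 and 0.090 for Psat1, −0.10 and 0.038 for Shmt2, −0.073 and 0.011 for Mthfd1, −0.016 and 0.40 for Mthfd2, and −0.016 and 0.67 for Aldh1l2. Apart from fewer arrays or other genes tested, the cause of these moves was not tested. The value table gave the same values.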
